A study of Caenorhabditis elegans with 2 samples.

Results

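The genes named abu, pqn and phat were examined in whole Caenorhabditis elegans on 2 Affymetrix arrays. A member was any gene with one of these names that had at least 1 probe set which the platform annotation gives to that gene alone. The rule gave 66 genes on 101 probe sets, out of 17118 genes on 20766 probe sets of exactly 1 gene. They were 8 phat, 11 abu and 47 pqn genes. The rule used names only, and no measured value. One array came from nematodes labelled as fed Escherichia coli HT115 that makes double-stranded RNA for imp-2, and the other from nematodes whose bacteria were labelled as making such RNA for GFP, a fluorescent protein that serves as the control. Feeding of double-stranded RNA starts RNA interference (RNAi), and both groups share the bacterial strain. The gene imp-2 encodes a protease of the signal peptide peptidase family, related to the presenilins named in the series title. The sources used here give no genotype, stage or age. With 1 array in each group there is no replicate check, no test and no p-value, and every ratio is between these 2 arrays only. The tissue label adds a mammalian brain region to the whole animal, which a nematode lacks.

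The pharynx is the feeding organ of the worm. Its lumen is lined by a cuticle that contains chitin and is shed and rebuilt at each molt. The abu genes were named because they are induced when the unfolded protein response, the answer of the endoplasmic reticulum (ER) to misfolded proteins, is blocked. Many abu genes and part of the pqn genes belong to a group of paralogs that encode secreted proteins rich in glutamine, asparagine and cysteine and are expressed in cells that build the pharyngeal lining. The pqn genes were named for a prion-like domain rich in glutamine and asparagine, so that they form a class by composition, with secreted, cytoplasmic and nuclear proteins in it. The phat genes encode secreted toxin-related peptides of the pharyngeal gland cells, which empty into the lumen. The name of a pharyngeal lining group therefore describes the abu genes and some pqn genes, while the phat genes belong to the glands.

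The target gene did not settle the labels. One imp-2 probe set read 1754 under the imp-2 RNAi label and 2318 under the GFP RNAi label, a log2 ratio of −0.41. The other read 2517 under the imp-2 RNAi label and 510 under the GFP RNAi label, a log2 ratio of 2.29. Each direction below is therefore a direction between array labels. Each array received a floor at its median intensity over all non-control probe sets, 35.3 under the imp-2 RNAi label and 30.1 under the GFP RNAi label. A value under the floor was raised to it, which makes the resulting fold a lower bound where the other reading was above both floors. The floors differ, so that a set whose GFP RNAi label reading alone passed, and lay between the floors, gives no bound. Among the members this concerned sets of pqn-13, pqn-21, pqn-36 and pqn-88 that were not the sets used for these genes. Genes whose log2 intensity, averaged over both arrays, exceeded the median of that average are called expressed, and there were 8553 of them. Log2 ratios are centred on the median of those genes. Probe sets of the same expressed gene differed with a spread of 0.37 on the log2 scale, over 2489 pairs, and this spread says nothing about cultures. Among the members it was 0.43, over 29 pairs from 13 genes.

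Of the 66 members, 42 counted as expressed and 24 did not. The expressed ones were 6 of 8 phat, 7 of 11 abu and 29 of 47 pqn genes. In 37 of the 42 both arrays were above their floors, and in 5 (phat-2, abu-13, pqn-27, pqn-82 and pqn-84) only the brighter array was, so that these passed through that array alone. Among the 42, 1 passed 2-fold towards the imp-2 RNAi label (higher there), against 9.72% of all expressed genes. In the other direction 4 were at least 2-fold lower, which is 9.52% of them, against 2.27% of all expressed genes. The other 37 were not called at 2-fold. One of them, pqn-27, has only a lower bound, and without the floor its log2 ratio was −1.51. With quantile normalization 0 members were 2-fold higher and 5 were 2-fold lower. Of all expressed genes 8.19% were then 2-fold higher and 2.67% were 2-fold lower. The median log2 ratio of the 42 was −0.09, beside 0 over all expressed genes by construction. The classes differed in their medians, at −0.54 for phat, 0.10 for abu and −0.10 for pqn, and no test of these differences was possible.

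**Figure D1:**
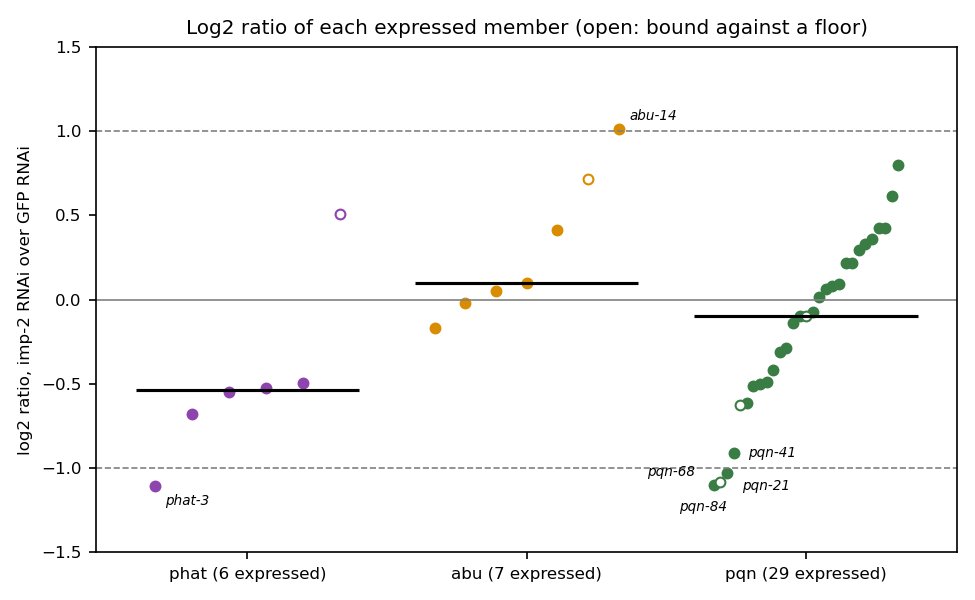
Log2 ratio (imp-2 RNAi over GFP RNAi) of each expressed member, ordered within its class; filled points were above the floor on both arrays, open points are bounds against a floor, black lines are class medians and dashed lines mark 2-fold. The 5 filled phat points lie below 0, between −1.11 and −0.49, while the abu points run between −0.17 and 1.01 and the pqn points spread to both sides.

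The phat genes that could be read on both arrays were all lower under the imp-2 RNAi label. These were phat-3, phat-4, phat-6, phat-7 and phat-8, with log2 ratios between −1.11 and −0.49. Among the 6 expressed phat genes 5 had a ratio below 0, where 50% of all expressed genes had one, a share fixed by the centring. With centring that follows brightness, the log2 ratios of the brighter phat genes were nearer to 0. They were −0.47 for phat-4, −0.43 for phat-8 and −0.39 for phat-7. The dimmer phat-3 and phat-6 were then farther from 0, at −1.20 and −0.88.

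The gene phat-3 read 96.5 under the imp-2 RNAi label and 207 under the GFP RNAi label. It was 2.16-fold lower under the imp-2 RNAi label (log2 ratio −1.11), and 1.43% of expressed genes had a ratio as low or lower. Next was phat-6, which read 71.9 under the imp-2 RNAi label and 114 under the GFP RNAi label. That is 1.60-fold lower, a log2 ratio of −0.68. The remaining 3 lay close together.

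For phat-4 the intensities were 195 under the imp-2 RNAi label and 284 under the GFP RNAi label, 1.46-fold lower (log2 ratio −0.55). For phat-8 they were 730 under the imp-2 RNAi label and 1042.5 under the GFP RNAi label, 1.44-fold lower (log2 ratio −0.52). For phat-7 they were 621 under the imp-2 RNAi label and 869 under the GFP RNAi label, 1.41-fold lower (log2 ratio −0.49). Each of these differences is larger than the probe set spread of 0.37 and smaller than 2 such spreads. Between 10.9% and 13.1% of expressed genes had ratios as low as these 3.

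At 1.5-fold, 2 of the 6 expressed phat genes were lower under the imp-2 RNAi label (phat-3 and phat-6), where 9.6% of all expressed genes were. None was called 1.5-fold higher, where 19% of all expressed genes were, but the value of phat-2 is a lower bound and its log2 ratio was 0.66 without the floor. No phat gene had a second probe set of its own, so that the agreement of probe sets could not be examined within the class. A further probe set that the annotation gives to phat-3 and phat-7 together read 735 under the imp-2 RNAi label and 960 under the GFP RNAi label. Its log2 ratio was −0.40, close to that of the phat-7 set and less far from 0 than that of the phat-3 set.

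The other 3 phat genes were near or under the floors. The gene phat-2 read 43.1 under the imp-2 RNAi label and 27.1 under the GFP RNAi label, which is under the floor of that array. With the centring used here phat-2 was therefore at least 1.42-fold higher with the imp-2 RNAi label, the only expressed phat gene on that side. Its log2 ratio was 0.51, against 0.23 with centring that follows brightness and 0.32 with quantile normalization. Readings of phat-1 were 21.6 under the imp-2 RNAi label and 13.8 under the GFP RNAi label, and those of phat-5 were 27.9 under the imp-2 RNAi label and 18.5 under the GFP RNAi label. Both genes were under both floors, and no fold is given for them.

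The phat genes lie in small groups and alone. In the gene table of the WBcel235 assembly phat-3 and phat-7 are immediate neighbours, and both were lower under the imp-2 RNAi label. The neighbours phat-1 and phat-2 were the ones under or partly under the floors. The pair of phat-4 and phat-5 has 3 genes between its members, and phat-4 was lower while phat-5 could not be read. The genes phat-6 and phat-8 had no other member within 10 genes, and both were lower under the imp-2 RNAi label.

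**Figure D2:**
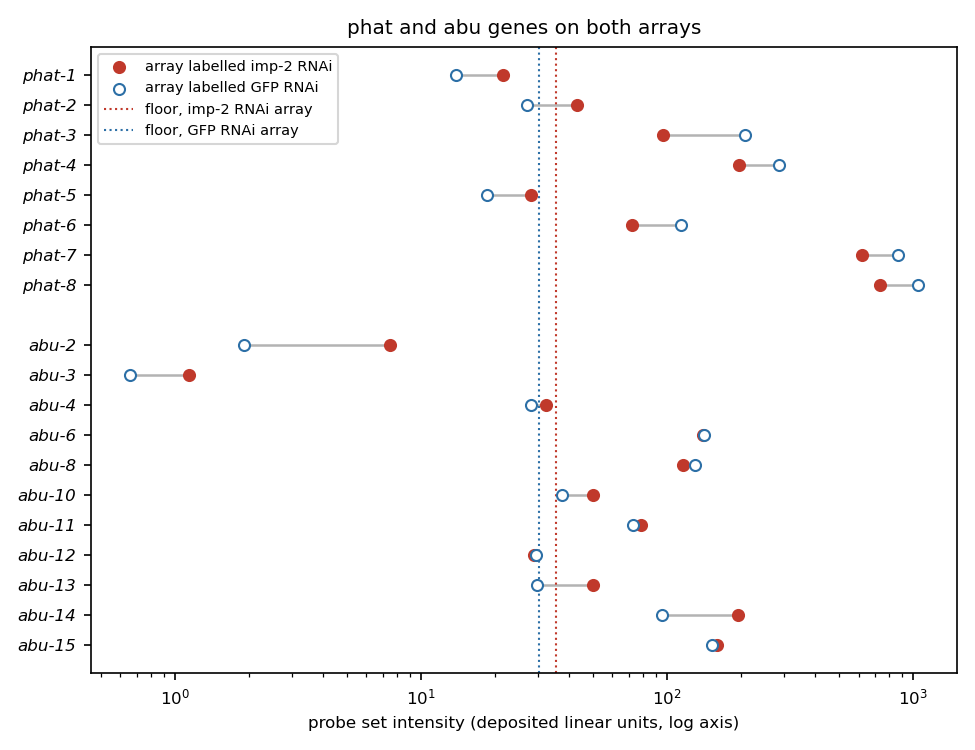
Intensity of the probe set used for each phat and abu gene (deposited linear units, log axis) with the imp-2 RNAi label filled and the GFP RNAi label open; dotted lines are the floors of the arrays. The open point lies to the right of the filled one for phat-3, phat-4, phat-6, phat-7 and phat-8, while abu-6, abu-11 and abu-15 have nearly the same reading on both arrays.

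Most abu genes that could be read differed little between the labels. Of the 7 expressed, 1 was higher by 2-fold or more under the imp-2 RNAi label, 0 were lower by that much and 6 were not called, with abu-13 as a lower bound. Over all expressed genes 9.72% were 2-fold higher and 2.27% were 2-fold lower. The median log2 ratio was 0.10.

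The exception was abu-14, a member of the paralog group expressed in the pharynx. It read 195 under the imp-2 RNAi label and 95.6 under the GFP RNAi label, 2.02-fold higher (log2 ratio 1.01). It is the member nearest to the 2-fold limit on the inside. Its second probe set read 97.6 under the imp-2 RNAi label and 85.1 under the GFP RNAi label, a log2 ratio of 0.19. The 2 sets differed by 0.83, about as much as the larger ratio itself, and the mean of both was 0.61.

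The gene abu-13 read 49.8 under the imp-2 RNAi label and 29.7 under the GFP RNAi label, just under the floor there. With the centring used here it was at least 1.64-fold higher, and its log2 ratio was 0.44 with centring that follows brightness. The gene abu-10 read 50.1 under the imp-2 RNAi label and 37.3 under the GFP RNAi label, 1.33-fold higher (log2 ratio 0.42). Both were dim, in the range where the median of all expressed genes was also above 0. When expressed genes were split by brightness into 10 equal bins, that median was 0.24 in the dimmest. The 2 abu genes at least 1.5-fold higher (abu-13 and abu-14) stand beside 19% of all expressed genes past that fold.

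Another 4 abu genes were almost level between the labels. Overexpression of abu-11 is known to lengthen the life of the worm. It read 78.7 under the imp-2 RNAi label and 72.8 under the GFP RNAi label (log2 ratio 0.10). The values of abu-15 were 159 under the imp-2 RNAi label and 153 under the GFP RNAi label (log2 ratio 0.05). Those of abu-6 were 140.4 under the imp-2 RNAi label and 141.5 under the GFP RNAi label (log2 ratio −0.02). For abu-8 they were 116 under the imp-2 RNAi label and 130 under the GFP RNAi label (log2 ratio −0.17), and its second probe set gave −0.12. All 4 ratios are smaller than the probe set spread of 0.37.

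Of these level genes, 3 belong to one cluster. In the gene table abu-15, abu-6 and abu-7 follow each other with no gene between them, and abu-8 comes after 6 further genes. The probe sets of abu-6, abu-8 and abu-15 carry the suffix _x_at, which marks probes that can match other transcripts. A probe set given to abu-7 and abu-8 together read 141 under the imp-2 RNAi label and 128 under the GFP RNAi label (log2 ratio 0.12). The cluster is therefore level on 5 probe sets, but its single genes are not told apart with certainty. A set given to abu-1 and pqn-2, which are neighbours, was also level, at 123 under the imp-2 RNAi label and 110 under the GFP RNAi label (log2 ratio 0.15).

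The other 4 abu genes (abu-2, abu-3, abu-4 and abu-12) were under both floors on every probe set of their own. Their readings were between 1.14 and 32.3 under the imp-2 RNAi label and between 0.66 and 29.4 under the GFP RNAi label. The lowest belong to abu-3, which the gene table lists as a pseudogene. The other pseudogene among the members is pqn-11, with 1.13 under the imp-2 RNAi label and 0.69 under the GFP RNAi label.

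The pqn genes, the class defined by composition, spread to both sides. Of the 29 expressed, 13 had ratios above 0 and 16 below 0, with a median of −0.10. At least 2-fold, 0 were higher under the imp-2 RNAi label, against 9.72% of all expressed genes. The 3 that were lower are 10.3% of them, against 2.27%. At least 1.5-fold, 2 were higher, which is 6.90% of them, against 19% of all expressed genes. In the other direction 6 were lower by at least 1.5-fold, which is 20.7% of them, against 9.6%.

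**Figure D3:**
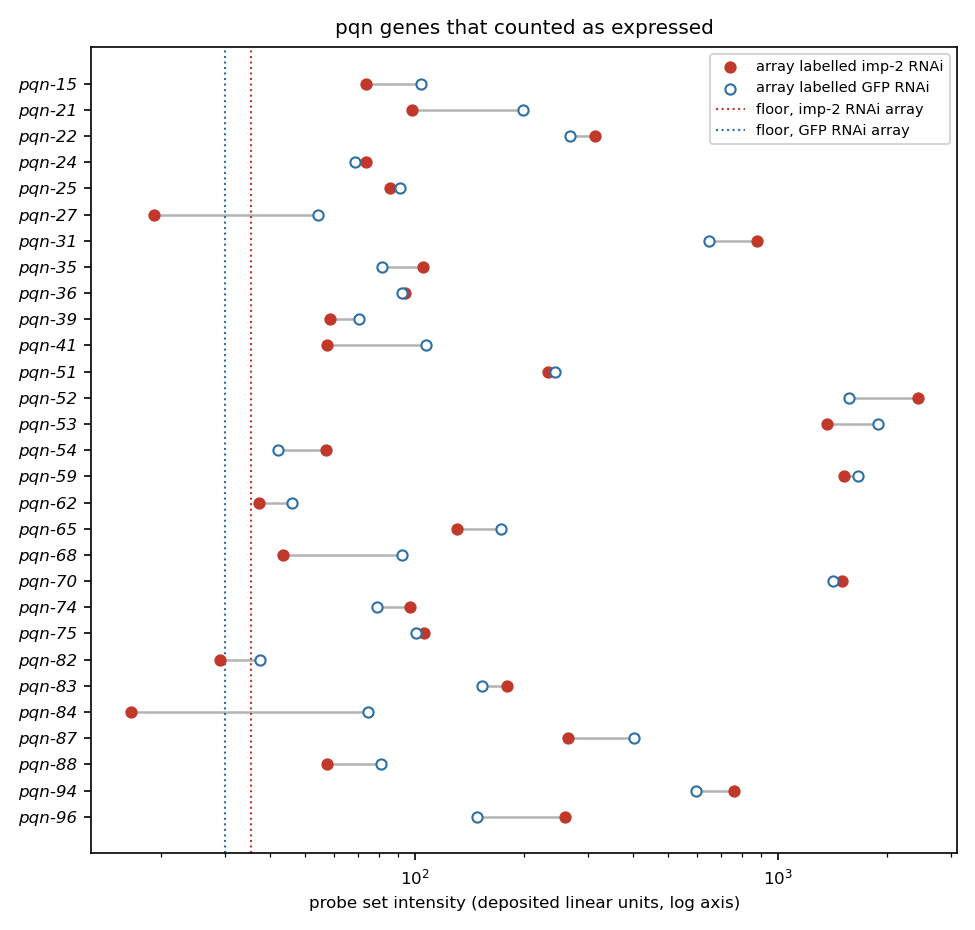
Intensity of the probe set used for each of the 29 expressed pqn genes (deposited linear units, log axis) with the imp-2 RNAi label filled and the GFP RNAi label open, with the floors as dotted lines. The open point is well to the right of the filled one for pqn-21, pqn-27, pqn-41, pqn-68 and pqn-84, and well to the left for pqn-52 and pqn-96.

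The lowest pqn ratio was that of pqn-68, which read 43.5 under the imp-2 RNAi label and 92.4 under the GFP RNAi label. It was 2.14-fold lower (log2 ratio −1.10). The gene pqn-84 read 16.5 under the imp-2 RNAi label, below the floor, and 74.3 under the GFP RNAi label, and was at least 2.12-fold lower. Each of these genes had a single probe set.

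The third was pqn-21, and its probe sets gave opposite signs. The set used read 98.1 under the imp-2 RNAi label and 199 under the GFP RNAi label, 2.04-fold lower (log2 ratio −1.03). A second set read 70.8 under the imp-2 RNAi label and 59.3 under the GFP RNAi label, a log2 ratio of 0.25. The remaining set read 17.3 under the imp-2 RNAi label, below the floor, and 32.7 under the GFP RNAi label. Raising the lower reading to the floor reversed its direction, to a log2 ratio of 0.10. The mean of all 3 probe sets, with that floored value in it, was −0.22, inside 2-fold. The size of this mean therefore depends on the floor as well as on the disagreement of the sets.

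Just outside 2-fold was pqn-41, a glutamine-rich gene needed for the death of the linker cell in the male gonad. It read 57.5 under the imp-2 RNAi label and 107 under the GFP RNAi label, 1.88-fold lower (log2 ratio −0.91). Its other 3 probe sets were under both floors. The gene pqn-27 read 19.1 under the imp-2 RNAi label, below the floor, and 54.1 under the GFP RNAi label, at least 1.54-fold lower.

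The last of the 6 was pqn-87, for which 2 probe sets above the floors agreed. The set used read 264 under the imp-2 RNAi label and 401 under the GFP RNAi label, 1.53-fold lower (log2 ratio −0.61). The other read 136 under the imp-2 RNAi label and 215 under the GFP RNAi label (log2 ratio −0.67).

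On the other side stood pqn-96 and pqn-52. The gene pqn-96 read 260 under the imp-2 RNAi label and 148 under the GFP RNAi label, 1.74-fold higher (log2 ratio 0.80), and its second set gave 0.77. Both of its sets thus lie past 1.5-fold, as both sets of pqn-87 do in the other direction. The gene pqn-52 read 2431 under the imp-2 RNAi label and 1572 under the GFP RNAi label, 1.53-fold higher (log2 ratio 0.62). Its other sets had log2 ratios of 0.19 and 1.47, which share a direction and differ in size by more than any other pair of sets among the members.

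One further gene, pqn-89, read 51.7 under the imp-2 RNAi label and 17.2 under the GFP RNAi label. With the centring used here it was at least 1.70-fold higher. It did not pass the filter on the mean, and it is in no count of expressed genes or of calls above.

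The remaining 21 expressed pqn genes were not called at 1.5-fold, with pqn-82 as a lower bound, 11 above 0 and 10 below. Above 0 the ratios ran up to 0.43 (pqn-31, with 876 under the imp-2 RNAi label and 646 under the GFP RNAi label). Below 0 they ran down to −0.51 (pqn-15, with 73.7 under the imp-2 RNAi label and 104 under the GFP RNAi label). Several bright probe sets were in this group. The gene pqn-59, whose protein is the homologue of the human stress granule protein UBAP2L, read 1523 under the imp-2 RNAi label and 1663 under the GFP RNAi label. Its log2 ratio was −0.14, and −0.16 on the second set.

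For pqn-70 the intensities were 1508 under the imp-2 RNAi label and 1417 under the GFP RNAi label (log2 ratio 0.08, and 0.25 on the second set). For pqn-53 they were 1364 under the imp-2 RNAi label and 1896 under the GFP RNAi label (log2 ratio −0.49), but 0.23 on the second set. The gene pqn-75, which is expressed in pharyngeal gland cells as the phat genes are, read 106 under the imp-2 RNAi label and 101 under the GFP RNAi label. Its log2 ratio of 0.06 lies above those of the 5 readable phat genes, and the difference could not be tested.

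The 18 pqn genes that did not count as expressed included 16 under both floors. Those readings were at most 30.7 under the imp-2 RNAi label and 28.5 under the GFP RNAi label. Among them were pqn-10, at 10.1 under the imp-2 RNAi label and 1.94 under the GFP RNAi label, and pqn-16, at 9.47 under the imp-2 RNAi label and 4.23 under the GFP RNAi label. The gene abu-2, with 7.50 under the imp-2 RNAi label and 1.91 under the GFP RNAi label, was as dim. No ratio is read from such values.

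Probe sets of the same gene limited what could be said of single pqn genes. Among the 13 members with several sets above both floors, 7 had 1 sign on all of them and 6 had both signs. The 6 were pqn-15, pqn-21, pqn-36, pqn-39, pqn-53 and pqn-83. Over pairs of sets of the same gene past the brightness filter, also those under a floor, 66.7% had the same sign among all genes. The share was 55.2% over the 29 pairs of members and 51.9% over the 27 pairs of pqn genes. For pqn-15 the sets gave −0.51 and 0.48, and for pqn-83 its 4 sets ranged between −0.53 and 0.22. For pqn-39 the sets gave −0.28 and 0.17, and for pqn-36 the 3 sets ranged between −0.32 and 0.02. The smallest differences, 0.02 to 0.06, were those of pqn-59, pqn-96, abu-8 and pqn-87.

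**Figure D4:**
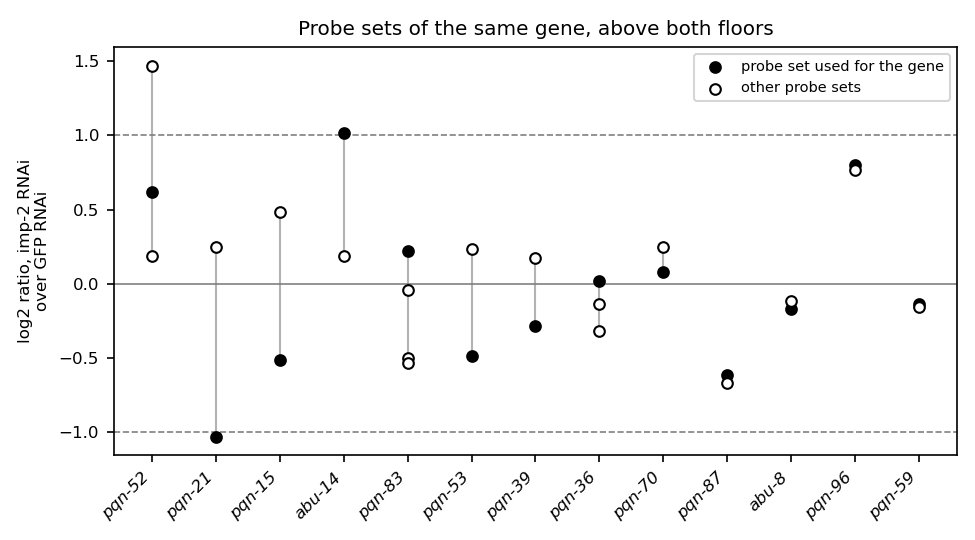
Log2 ratio (imp-2 RNAi over GFP RNAi) of each probe set above both floors, for the 13 members with several such sets, ordered by the difference between their lowest and highest set; filled points are the sets used for the gene and dashed lines mark 2-fold. The difference is 1.28 for pqn-52 and for pqn-21 and 0.02 for pqn-59.

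Other genes of the pharynx were then set beside the members. The genes of a list for pharyngeal muscle had a median near 0 and single genes on both sides. Of 11 listed, 9 were expressed, 0 were 2-fold higher and 0 were 2-fold lower, and the median log2 ratio was 0.02. Over all expressed genes 9.72% were 2-fold higher and 2.27% were 2-fold lower. The pharyngeal myosin gene myo-1 read 706 under the imp-2 RNAi label and 685 under the GFP RNAi label, and myo-2 read 236 under the imp-2 RNAi label and 182 under the GFP RNAi label. Farthest from 0 were eat-20 (1.65-fold lower, log2 ratio −0.72), marg-1 (1.43-fold lower, log2 ratio −0.52) and pha-4 (log2 ratio 0.48), so that the first of these lay past 1.5-fold and the second was as low as phat-7 and phat-8. None of them is among the 6 genes taken as muscle markers, and the 5 expressed markers lay between −0.30 and 0.36. The gene marg-1 read 35.8 under the imp-2 RNAi label, just above the floor of 35.3 there. The summed intensity of the 6 muscle markers was 1766 under the imp-2 RNAi label and 1778 under the GFP RNAi label, and ceh-22 was under both floors. In whole animals, fewer cells of a type and less RNA per cell cannot be told apart.

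Too few gland genes other than phat could be read to show a common direction. Of 8 listed, 7 were read by an own probe set, and 5 of those were under both floors. The 5 included hlh-6, the transcription factor of the gland cells, at 17.7 under the imp-2 RNAi label and 26.3 under the GFP RNAi label. Of the other 2, the lysozyme gene lys-8, which the intestine also expresses, read 508 under the imp-2 RNAi label and 233 under the GFP RNAi label, 2.16-fold higher. The gene dod-6 read 650 under the imp-2 RNAi label and 741 under the GFP RNAi label, a log2 ratio of −0.20. Among the 6 intestine markers, 5 were expressed, 2 of them past 2-fold higher and 0 past 2-fold lower, elt-2 was under both floors, and the summed intensity was 18298 under the imp-2 RNAi label and 16007 under the GFP RNAi label. Of the markers of other tissues, 2 of 5 epidermis, 0 of 4 body wall muscle and 0 of 3 expressed germ line genes were past 2-fold higher, and 0 were past 2-fold lower. Both of those epidermis genes, bli-1 and rol-6, were under the floor of the GFP RNAi array. Beside these marker counts stand 9.72% of all expressed genes past 2-fold higher and 2.27% past 2-fold lower. The part of other tissues in the phat and lys-8 values was not tested.

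Genes of the lining, of chitin and of molting went to both sides. Of 23 listed, 15 were expressed, 4 were 2-fold or more higher and 1 was 2-fold or more lower under the imp-2 RNAi label, with a median log2 ratio of 0.54. Among all expressed genes the shares were 9.72% higher and 2.27% lower. The median of the list was −0.05 over the 13 above both floors. Those higher were the chitinase gene cht-1 (2.78-fold), the apical matrix gene noah-1 (2.71-fold), pan-1 (2.46-fold) and mlt-8 (2.17-fold). The one lower was myrf-2 (2.10-fold), a transcription factor gene. The chitin synthase gene of the pharynx, chs-2, was under both floors (13.9 under the imp-2 RNAi label and 26.5 under the GFP RNAi label). The pharyngeal transporter gene pgp-14 read 199 under the imp-2 RNAi label and 204 under the GFP RNAi label, as level as the abu cluster.

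Some genes of the unfolded protein response had higher ratios than any abu gene. Of 21 genes listed for this response and for cell corpse engulfment, 20 were expressed, 4 were at least 2-fold higher and 0 were 2-fold lower. The shares of all expressed genes were 9.72% higher and 2.27% lower. The median log2 ratio of the list was 0.10, but it pools 2 kinds of genes. The 14 expressed genes other than the ced genes had a median of 0.61, and the 6 ced genes one of 0.0011, a split made after the values were seen. Below 2-fold stood pdi-6 (0.91), hsp-3 (0.74) and crt-1 (0.65). Nearer to 0 or below it were enpl-1 (0.14), sel-1 (0.03), sel-11 (−0.01) and ero-1 (−0.22), so that the list was not raised as a whole. The 4 past 2-fold were ckb-2 (5.55-fold), dnj-7 (3.34-fold, with a GFP RNAi label reading of 31.0 just above its floor), the BiP gene hsp-4 (2.45-fold) and pek-1, the gene of an ER stress kinase (2.40-fold). Of the genes of the response's branches, pek-1 thus passed 2-fold, while the others did not, with log2 ratios of 0.57 for xbp-1, −0.52 for ire-1 and 0.40 for atf-6. The engulfment receptor gene ced-1, on which induction of abu genes is known to depend, read 106 under the imp-2 RNAi label and 102 under the GFP RNAi label.

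**Figure D5:**
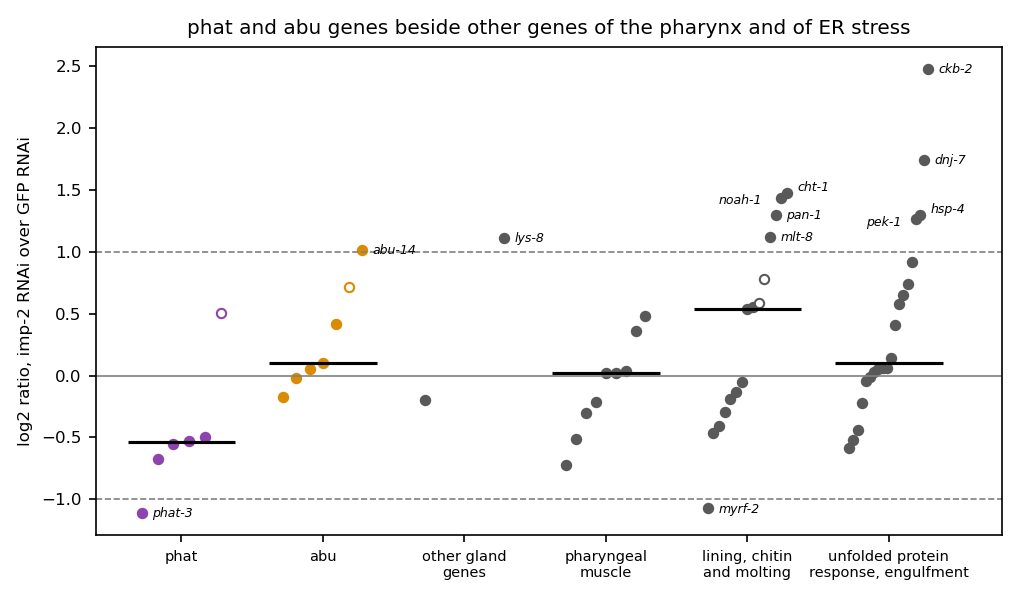
Log2 ratio (imp-2 RNAi over GFP RNAi) of the expressed phat and abu genes and of the expressed genes of 4 lists; filled points were above both floors, open points are bounds, black lines are medians (none for the list with 2 genes) and dashed lines mark 2-fold. The phat median is −0.54, the pharyngeal muscle median 0.02, and ckb-2, dnj-7, hsp-4 and pek-1 lie above the highest abu gene, abu-14 at 1.01.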

How the data were processed

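The deposited table holds linear intensities, with 1 value for each probe set on each array. How the authors summarised, background-corrected and scaled them is not stated in those sources that were used here, and 2% trimmed means were 150.04 on either array. No detection calls or single-probe values were used, and with arrays it is their number that limits the precision. Probe sets were named from the platform annotation, and all 66 members matched the WBcel235 gene table, which was used for names and neighbours only. Of 79 table genes with these names, 11 were read only by probe sets shared between genes and 2 by none. For a gene with several sets the one with the highest mean log2 intensity was used. The members, lists and thresholds were chosen with earlier results of these data known. All abu and phat genes were named, with pqn genes past 1.5-fold or with sets of opposite sign, the 5 brightest and 5 dimmest members, those next to 2-fold, and up to 4 genes per context list past 2-fold. Some genes were added after their values were seen: pqn-31, pqn-75, and the context genes short of 2-fold named beside the members. The calculations ran in Python 3.11.15 with numpy 2.4.6 and pandas 2.3.3, and were tested on simulated data. The planned split by protein sequence was not run, because no sequences were used here.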

Additional observations from a re-analysis of the deposited data

How the results depend on the processing

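The 5 readable phat genes and phat-2 kept their direction under each of 8 alternatives that gave a value (quantile normalization, intensity-dependent centring, no centring, no floor, no filter, the 75th percentile filter, the mean of the probe sets, and no _s_at or _x_at sets). So did 5 of 7 abu and 24 of 29 pqn genes. Every phat gene had 1 probe set, so that most of these alternatives could not change its sign. The filters left its ratio as it was, and no centring, the mean of the probe sets and the removal of sets moved only the centre. Quantile normalization and intensity-dependent centring, and for phat-2 the floor, changed phat ratios further. The classes are therefore not compared evenly, because some abu and pqn genes had several sets. Of the 42 expressed members, 20 are read by _s_at or _x_at sets. The 1 abu call at 2-fold, which is also the 1 higher call over all members, was 0 under quantile normalization, intensity-dependent centring and the mean of the probe sets. Under these settings, in that order, 8.19%, 7.51% and 9.45% of all expressed genes were 2-fold higher. Lower calls over all members were 5 under quantile normalization, under intensity-dependent centring and without the floor. The shares of all expressed genes 2-fold lower were then 2.67%, 3.24% and 2.56%. Lower calls were 3 with the mean of the probe sets, where pqn-21 was lost, against 1.67% of all expressed genes. The mean for pqn-21 includes a probe set whose direction was reversed by the floor. Above the 75th percentile 13 members were left, none of them an abu gene, and the 2-fold calls were 0. Of all genes past that filter 4.49% were 2-fold higher and 1.88% were 2-fold lower. The median over all members was −0.17 with intensity-dependent centring and 0.22 without the filter, where the ratio of the floors sets it. The pqn median was −0.18 with quantile normalization and with intensity-dependent centring, 0.22 without the filter, 0.15 above the 75th percentile and 0.053 without _s_at and _x_at sets. The abu median was 0.71 over the 2 genes left without those sets. Causes were not tested beyond what the fewer genes and the floor show. The phat median ranged between −0.55 and −0.45. Without the floor pqn-84 had a log2 ratio of −2.18 and pqn-27 of −1.51.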

Other observations

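The 11 genes read only by shared probe sets belong to small clusters of abu and pqn genes. The genes pqn-76, abu-5, pqn-78 and pqn-79 lie within a few genes of each other in the gene table, and pqn-90 and pqn-91 are immediate neighbours. The sets given to these 6 genes together read 41.4 under the imp-2 RNAi label and 45.3 under the GFP RNAi label, and 37.3 under the imp-2 RNAi label and 47.5 under the GFP RNAi label. Their log2 ratios were −0.14 and −0.36. The 2 sets for pqn-90 and pqn-91 had opposite signs, one with 57.4 under the imp-2 RNAi label and 35.8 under the GFP RNAi label (log2 ratio 0.67), the other with 24.8, below the floor, under the imp-2 RNAi label and 51.1 under the GFP RNAi label. The set for pqn-57 and abu-9 read 31.8 under the imp-2 RNAi label, below the floor, and 37.3 under the GFP RNAi label. All of these readings are close to the floors, so that nothing is read from their ratios about single genes.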
